A study of Rattus norvegicus and Mus musculus with 14 samples.

Results

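Transcript abundance was compared between embryonic rat cortical neurons given the MEK inhibitor PD98059 together with N-methyl-D-aspartate (NMDA) and the same kind of cultures given NMDA alone. The 4 arrays of this comparison, of 14 in the series, were chosen by their titles: NMDA experiment 1, NMDA experiment 2, and the PD98059 array of each of these experiments. A control array from experiment 2, of cells in a solution called CSS in the labels, was set beside them, and 4 arrays of another set gave a comparison with nitroarginine, an inhibitor of nitric oxide synthase, under NMDA. Dose and time of each agent, rat strain and embryonic age are not stated in the labels. The labels do not say whether the arrays of a treatment hold separate cultures, so each p-value reflects a spread that may be wholly technical.

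NMDA opens a class of glutamate receptor that admits calcium into neurons. One of the routes from that calcium signal to the nucleus is the Ras-ERK cascade, in which Raf activates MEK, MEK phosphorylates ERK, and ERK acts on transcription factors of the ETS family and, through other kinases, on CREB. PD98059 binds MEK and hinders its activation, so it is used to ask how much of a response to a stimulus passes through ERK.

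Each value is a Z-score within its array: 0 is the mean brightness of all 1152 probes on that array and 1 unit is about 1 SD over those probes. Differences below are in these Z units, as PD98059 minus NMDA unless stated, and no fold change can be derived from them. Values of different probes cannot be ranked against each other as amounts of RNA. In a whole culture, fewer cells of a type and less RNA per cell cannot be told apart. Of the probes, 384 carried a single gene symbol, for 342 genes.

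No probe differed between PD98059 with NMDA and NMDA alone past the threshold. The limma test over all 1152 probes gave 0 at an adjusted p under 0.05 (0% of probes), and its lowest adjusted p was 0.999. At an unadjusted p under 0.05, limma gave 47 probes, 4.08% of all, of which 45 were lower with PD98059 (3.91%) and 2 were higher (0.174%). Among genes with a name, the lowest estimates stood on probes for Hspa8, Chpf, Hpca, Septin4 and Cic, at -0.41 to -0.35 units, and the highest on a probe for the ribosomal protein gene Rpl13, at 0.14 units. None of these passed the test over all probes. Without the NMDA array of experiment 2, limma called 5 probes, all lower with PD98059 by 0.68 to 0.86 units and none with a gene name, and it called 0 without any other single array.

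The 4 arrays were close to each other, with correlations over the 1152 probes of 0.988 to 0.995. The SD over probes of PD98059 minus NMDA was 0.155 units in experiment 1 and 0.104 units in experiment 2. The same SD between the 2 NMDA arrays was 0.128 units, and between the 2 PD98059 arrays it was 0.131 units. The arrays with and without the inhibitor therefore differed about as much as arrays of the same treatment did. By the same measure, NMDA minus control in experiment 2 had an SD of 0.241 units and PD98059 minus control had 0.240 units.

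The intervals bound the size of a difference between these arrays for most probes. They rest on the same spread as the p-values, which may be wholly technical, so they may not bound a difference between cultures. The half-width of the 95% confidence interval from limma had a median of 0.161 units, from 0.133 to 0.585. The interval lay within 0.5 units of 0 for 1109 of the 1152 probes and for 366 of the 384 named probes. It lay within 1 unit of 0 for 1150 probes. A difference of 1 Z unit was thus outside the interval for nearly all probes, while a difference of 0.1 units is smaller than the half-width of every interval. For a single probe taken on its own, an exact permutation test of 2 arrays against 2 cannot give a two-sided p below 0.333.

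**Figure D1:**
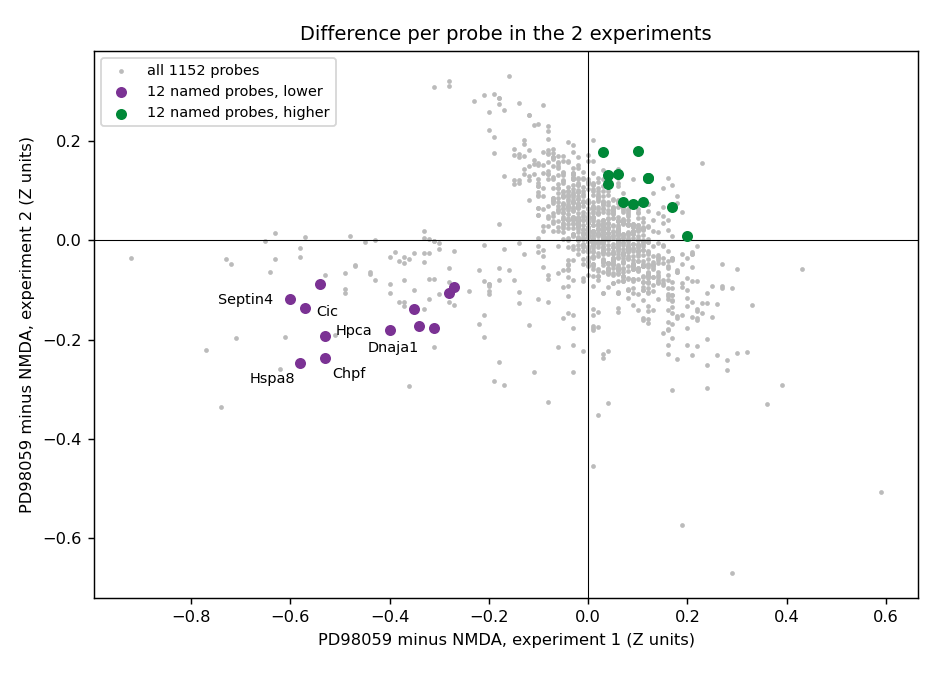
Each point is a probe, with PD98059 minus NMDA in experiment 1 on the horizontal axis and in experiment 2 on the vertical axis, both in Z units. Grey points are all 1152 probes, and coloured points are the 12 named probes with the smallest p in each direction. Most probes lie in a band that slopes down through 0, and a sparser group reaches to the left. In experiment 1, 36 probes were lower by about 0.4 units or more.

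The plot of the 2 experiments against each other had a band and a tail. In the band, probes that were higher with PD98059 in experiment 1 tended to be lower in experiment 2: over all 1152 probes, Pearson's r was -0.11 and Spearman's rho was -0.32, as a description across probes that share arrays. The sign was the same in both experiments for 425 probes, or 36.9%. The interquartile range of the difference was 0.12 units in each experiment and 0.052 units for their mean. The mean difference was above 0 for 817 probes (70.9%) and below 0 for 335 (29.1%), with a median of 0.02 units. The Z-score holds the mean over all probes near 0 on each array, so a tail of lower probes is balanced by small positive differences in others. These shares therefore do not show that a typical probe was higher with PD98059.

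The tail lay on the lower side. In experiment 1, 36 probes were lower with PD98059 by about 0.4 units or more and 2 were higher by as much. In experiment 2 these counts were 4 and 0. Values of experiment 1 are rounded to 2 decimals, so some differences fall on the bound. Probes 490 and 812 were counted at -0.4 units, while Dnaja1, also at -0.4 units, was not. Of the 36, 32 were also lower in experiment 2 (88.9%), against 546 of all 1152 probes (47.4%). Their differences in experiment 2 were small, with a median of -0.07 units and a range of -0.34 to 0.014. The medians of these 36 probes were -0.12 and -0.35 units on the NMDA arrays of experiments 1 and 2, -0.65 and -0.44 units on the PD98059 arrays, and -0.35 units on the control array. The NMDA array of experiment 1 was thus the highest of the 5 for this group and the PD98059 array of experiment 1 the lowest. The probes were selected on experiment 1, so only experiment 2 is independent of their choice, and no test was made of it. Whether the experiment numbers pair these arrays is not settled, since deviations from the group mean of same-numbered NMDA and PD98059 arrays correlated at -0.145. With the numbers crossed, 14 probes were lower by more than 0.4 units for PD98059 experiment 1 minus NMDA experiment 2, 15 for PD98059 experiment 2 minus NMDA experiment 1, and 0 were higher in either. The tail of 36 and the differences by experiment thus hold for the numbers as labelled. Taken the other way, of the 36 probes lowest in experiment 2, 14 were lower in experiment 1, with a median there of 0.04 units. That share was near that of all probes, of which 436 of 1152 (37.8%) were lower in experiment 1.

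The named members of the tail included Nefl, the neurofilament light chain of axons; Arf3, a small GTPase of the Golgi; Lrrc4b, a synaptic adhesion protein; and Hes6, a regulator of neuronal differentiation. The Arf3 probe read 0.49 and 0.38 units with NMDA and -0.09 and 0.36 units with PD98059. The Hes6 probe read 1.61 and 1.31 units with NMDA and 1.13 and 1.31 units with PD98059. For Arf3 the PD98059 array of experiment 1 was low alone, and a second Arf3 probe, at 0.22 and 0.22 units with NMDA and 0.22 and 0.24 units with PD98059, did not share that value. For Hes6 the arrays of experiment 2 lay together, with NMDA of experiment 1 above them and PD98059 of experiment 1 below. The 13 named probes of the tail hold 6 of the 12 lower probes described next.

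**Figure D2:**
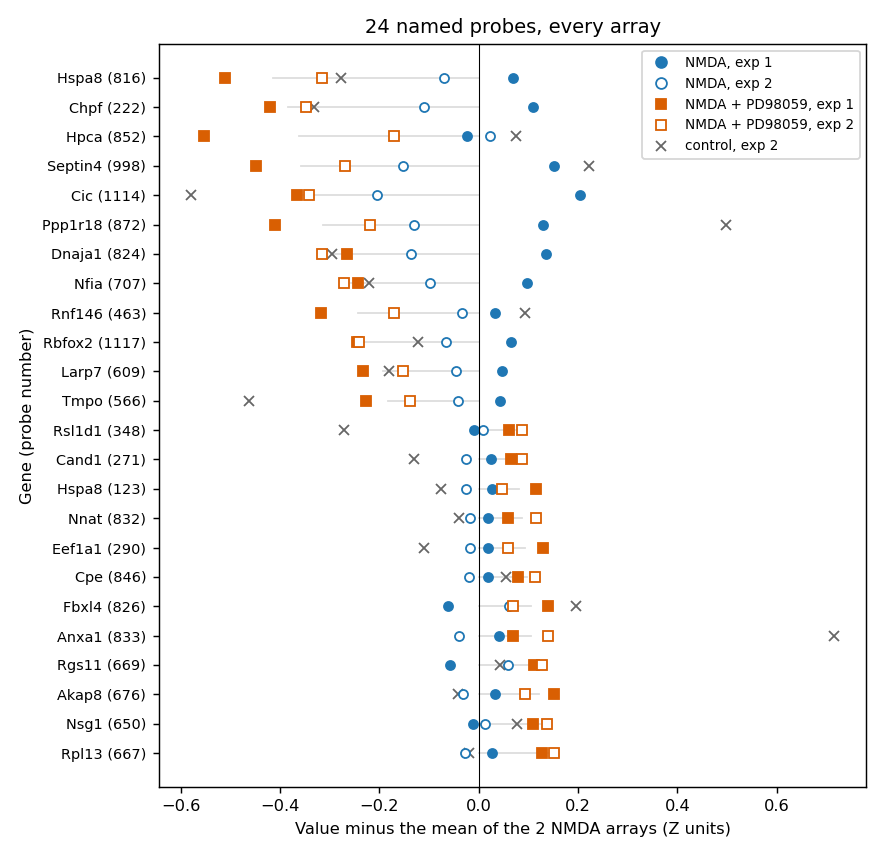
Values of the 24 named probes on every array, in Z units, each minus the mean of that probe's 2 NMDA arrays. Circles are NMDA, squares are NMDA with PD98059, filled symbols are experiment 1, open symbols are experiment 2, and crosses are the control of experiment 2; the grey line runs to the PD98059 mean. For all 12 lower probes both squares lie to the left of both circles, and for all 12 higher probes both lie to the right, by at most 0.14 units on average.

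The 12 named probes with the smallest p among those lower with PD98059 were described by their values, since none passed the test (adjusted p = 0.999 for each, limma). Both PD98059 arrays were below both NMDA arrays for all 12, an order that 103 of all 1152 probes (8.94%) also had. Because small p selects this order, it adds nothing to the estimates.

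Among them were the chaperone Hspa8, the constitutive Hsc70 that folds new proteins and uncoats clathrin vesicles, and its co-chaperone Dnaja1. Hspa8 probe 816 read -0.37 and -0.51 units on the NMDA arrays of experiments 1 and 2 and -0.95 and -0.76 units on the PD98059 arrays. The groups did not overlap, and the difference was -0.41 units (SE 0.089, n = 2 each). The control array, at -0.72 units, lay with the PD98059 arrays. Dnaja1 read -1.10 and -1.37 units with NMDA, -1.50 and -1.55 units with PD98059 and -1.53 units in the control, a difference of -0.29 units (SE 0.098). Hspa8 had 4 other probes, and their differences were 0.08, 0.04, 0.03 and -0.03 units. The 5 probes for Hspa8 therefore disagreed, and the mean over them was -0.06 units.

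Of the others, Cic, the capicua repressor whose hold on ETS-family genes is known to be released by ERK, read -1.24 and -1.65 units with NMDA and -1.81 and -1.79 units with PD98059, a difference of -0.35 units (SE 0.133). Its control array stood at -2.02 units, below all 4 others. Nfia, a nuclear factor I protein of neural and glial development, read -0.99 and -1.19 units with NMDA and -1.33 and -1.36 units with PD98059, a difference of -0.26 units (SE 0.079). The splicing regulator Rbfox2 read -1.69 and -1.82 units with NMDA and -2.00 and -2.00 units with PD98059, a difference of -0.24 units (SE 0.066). Larp7, which holds the small nuclear RNA that restrains transcription elongation, differed by -0.19 units (SE 0.065), from 1.44 and 1.35 units to 1.16 and 1.24 units. Tmpo, a protein of the nuclear lamina, differed by -0.18 units (SE 0.065), from 1.40 and 1.32 units to 1.13 and 1.22 units.

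Chpf, which helps to polymerise chondroitin sulphate chains, read -1.53 and -1.75 units with NMDA and -2.06 and -1.99 units with PD98059, a difference of -0.38 units (SE 0.087). Hpca, the neuronal calcium sensor hippocalcin, read 0.17 and 0.22 units with NMDA and -0.36 and 0.02 units with PD98059, a difference of -0.36 units (SE 0.126). Most of that came from experiment 1, at -0.53 units against -0.19 in experiment 2. Septin4 probe 998, for a filament-forming GTPase, read 0.00 and -0.30 units with NMDA and -0.60 and -0.42 units with PD98059, a difference of -0.36 units (SE 0.117), while the other Septin4 probe differed by 0.04 units. Ppp1r18 probe 872, for a regulator of protein phosphatase at actin filaments, differed by -0.31 units (SE 0.110), and its other probe by 0.03 units. Rnf146, a ubiquitin ligase that recognises poly-ADP-ribosylated proteins, differed by -0.24 units (SE 0.072), from -0.44 and -0.51 units to -0.79 and -0.64 units. For both genes with a second probe, that probe did not share the difference. Over the 12 lower probes, the control of experiment 2 lay nearer to the PD98059 mean for 7, nearer to the NMDA mean for 4 (Hpca, Septin4, Ppp1r18 and Rnf146) and midway for Rbfox2. The control of experiment 1, moved by 1 row, lay nearer to the PD98059 mean for 4 and nearer to the NMDA mean for 8, Hspa8, Chpf, Cic and Nfia among them. The controls thus gave no common side.

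On the higher side the 12 named probes had smaller differences. Rpl13 read -1.37 and -1.42 units with NMDA and -1.27 and -1.24 units with PD98059, a difference of 0.14 units (SE 0.056). Nsg1, a protein of neuronal endosomes, Akap8, a nuclear anchor of protein kinase A, and Rgs11, a regulator of G-protein signalling, each had a difference of 0.12 units. Cpe, a carboxypeptidase of secretory granules, Anxa1, a calcium-dependent membrane binder, and Fbxl4, a mitochondrial F-box protein, each had 0.10 units. The remaining 5 were probes for Eef1a1, Nnat, Hspa8, Cand1 and Rsl1d1, at 0.07 to 0.09 units. All 12 had both PD98059 arrays above both NMDA arrays, as had 165 of all 1152 probes (14.3%). Their limma adjusted p was 0.999 for each.

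Promoter sequences are shown for 3 of the lower genes, Hspa8 and Dnaja1 as the chaperone pair and Chpf as the gene with the most motif matches. They come from RefSeq on build GRCr8 and run from 250 bases before to 50 bases after the first listed start, 5′ to 3′ on the strand of the gene. Capitals mark matches on either strand to an ETS site (CCGGAAG), a cyclic AMP response element (TGACGTCA) or a heat-shock element (TTCNNGAA). The promoters lie at chr8:50080264-50080563 on the plus strand, chr5:60638154-60638453 on the plus strand and chr9:84416474-84416773 on the minus strand.
Hspa8: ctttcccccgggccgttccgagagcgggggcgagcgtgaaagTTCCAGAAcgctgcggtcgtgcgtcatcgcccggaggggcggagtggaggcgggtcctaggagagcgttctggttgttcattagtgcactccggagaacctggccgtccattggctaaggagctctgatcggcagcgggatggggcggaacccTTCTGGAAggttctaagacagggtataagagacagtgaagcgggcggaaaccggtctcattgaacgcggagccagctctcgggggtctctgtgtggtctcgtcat
Dnaja1: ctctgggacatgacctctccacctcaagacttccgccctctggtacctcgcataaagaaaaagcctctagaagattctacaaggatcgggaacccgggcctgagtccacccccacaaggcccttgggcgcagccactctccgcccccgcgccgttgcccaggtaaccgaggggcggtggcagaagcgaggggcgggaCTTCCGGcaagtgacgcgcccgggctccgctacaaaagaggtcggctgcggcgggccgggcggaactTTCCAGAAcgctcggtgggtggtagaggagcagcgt
Chpf: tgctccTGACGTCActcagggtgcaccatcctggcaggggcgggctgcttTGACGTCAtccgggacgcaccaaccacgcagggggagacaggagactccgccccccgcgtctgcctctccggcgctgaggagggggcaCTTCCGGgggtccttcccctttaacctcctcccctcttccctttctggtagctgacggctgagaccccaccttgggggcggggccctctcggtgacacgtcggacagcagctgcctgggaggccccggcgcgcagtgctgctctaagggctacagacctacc

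In the Hspa8 promoter the 2 heat-shock matches began 208 and 55 bases before the start. Dnaja1 had an ETS match 53 bases before and a heat-shock match 15 bases after the start, and Chpf had an ETS match 112 bases before and cyclic AMP elements 244 and 200 bases before it. Of the 11 promoters held for the 12 lower genes, 2 had an ETS match (18.2%), 2 a cyclic AMP element (18.2%) and 2 a heat-shock match (18.2%). These counts use the first listed start, and Septin4 had heat-shock matches only 133 and 135 bases before other listed starts. Of the 10 promoters held for the 12 higher genes, 3 had an ETS match (30%), 1 a cyclic AMP element (10%) and 1 a heat-shock match (10%). Hspa8 stands in both sets through different probes, and its promoter gave the heat-shock match of the higher set. For ETS, cyclic AMP and heat-shock matches, the shares were 17.2%, 4.49% and 6.37% of the 267 promoters of named genes. Over all 27457 promoters of this length they were 9.22%, 1.91% and 8.49%. An AP-1 site (TGANTCA), a serum response element and an EGR site (GCGTGGGCG) had 0 matches among the 11, against 7.33%, 0.0401% and 0.59% of all promoters. With 11 promoters a share moves by steps of 1 promoter, and a match is only a run of letters.

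The genes of the MAP kinase lists showed no difference that passed. The array carried 9 probes for 8 of these genes, and 0 of 9 passed limma. Of the 9, 4 were higher and 5 lower, with a median difference of -0.003 units, against 0.02 units over all probes. The lists also hold stress kinases and other genes outside the Ras-ERK cascade, so these counts are not for that cascade alone. Map2k2, which encodes MEK2, one of the kinases that PD98059 is aimed at, read 0.57 and 0.45 units with NMDA and 0.52 and 0.47 units with PD98059. The difference was -0.02 units with a 95% interval of -0.18 to 0.15 units, and the groups overlapped. The inhibitor acts on the protein's activation, so this probe is no check of the treatment.

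The 2 probes for Grb2, the adaptor that links receptors to Ras, differed by 0.08 and -0.03 units. Rap1gap, which switches off the GTPase Rap1, differed by 0.06 units and Mapkap1, a subunit of mTOR complex 2 that also binds Ras, by -0.01 units. The stress kinases Mapk8 and Mapk9, which encode JNK1 and JNK2, differed by 0.01 and -0.003 units. Among transcription factors, Etv5, an ETS factor whose transcription commonly follows ERK activity, read -1.56 and -1.50 units with NMDA and -1.59 and -1.68 units with PD98059. Both PD98059 arrays were below both NMDA arrays, and the difference was -0.10 units (95% interval -0.26 to 0.05). Mef2d, an activity-regulated factor of neurons, read -0.27 and -0.25 units with NMDA and -0.16 and -0.26 units with PD98059, a difference of 0.05 units. Over all 9 probes the outermost interval bounds were -0.26 and 0.31 units, so differences past those sizes lay outside every interval of these genes.

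**Figure D3:**
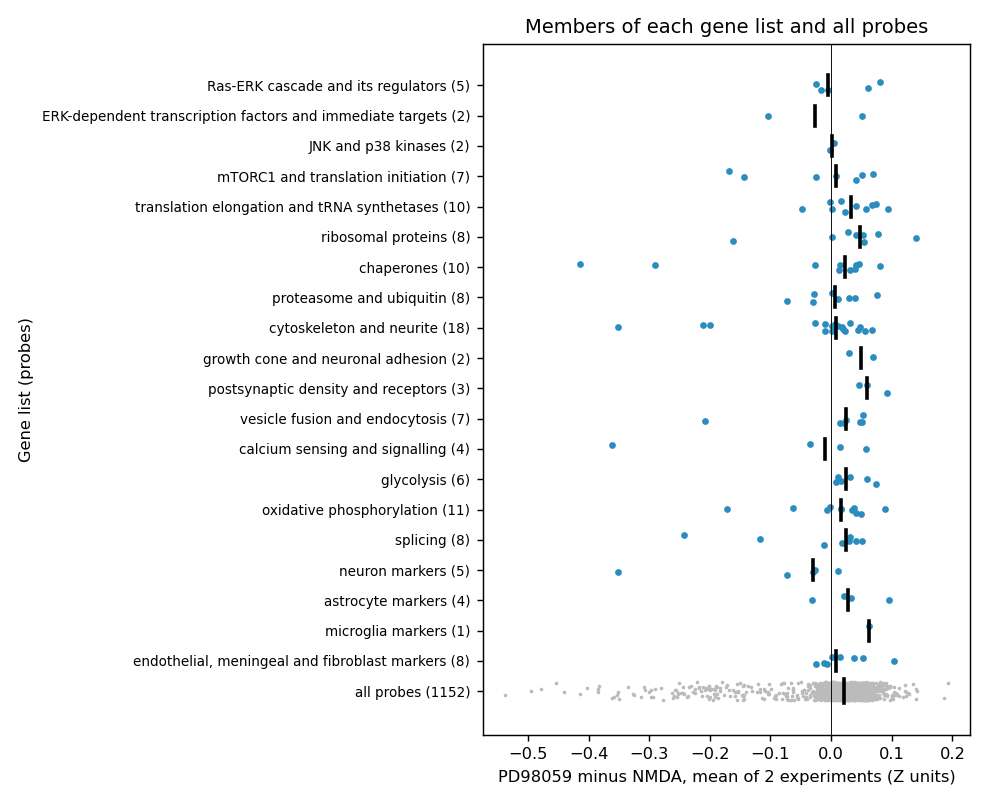
Each point is a probe, placed by its PD98059 minus NMDA difference in Z units (mean of the 2 experiments), with 1 row per gene list and all 1152 probes in the bottom row; black bars are medians and the number of probes stands after each list name. The list medians lie near the median of all probes (0.02 units), and single members such as Hspa8, Hpca and Nefl lie out to the left.

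Other gene groups were described by their counts beside those of all named probes, of which 266 of 384 were higher with PD98059, 118 lower and 0 passed the test. In every list 0 members passed. Medians of the lists with at least 3 genes stayed within 0.06 units of 0. Leaving out 1 array took them as far as -0.12 units, for neuron markers without the NMDA array of experiment 1, and 0.13 units, for postsynaptic genes without the PD98059 array of experiment 2. Only 3 of the 16 lists with at least 3 genes kept the sign of their median in all 18 alternative settings, so no direction is given for a list.

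Of genes for making protein, 7 of 8 probes for ribosomal proteins were higher and 1 lower, with a median of 0.05 units. The exception was Rplp0, of the ribosomal stalk, which read 1.34 and 1.18 units with NMDA and 1.01 and 1.18 units with PD98059, a difference of -0.16 units. Of 10 probes for elongation factors and the tRNA synthetase Vars, 8 were higher, with a median of 0.03 units and a highest value of 0.09 units for Eef1a1. Of 7 probes of mTORC1 and translation initiation, 4 were higher. Eif4g1, the initiation scaffold, read 0.66 and 0.53 units with NMDA and 0.38 and 0.47 units with PD98059, a difference of -0.17 units, and Tsc2, an inhibitor of mTORC1 that ERK can phosphorylate, differed by -0.14 units. The groups overlapped for Tsc2 and not for Eif4g1.

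Of 10 chaperone probes 7 were higher and 3 lower, with a median of 0.02 units, and the low values of Hspa8 probe 816 and Dnaja1 stood apart from the rest. Hsp90ab1, the constitutive Hsp90, differed by 0.05 units, and the chaperonin subunit Cct5 by 0.01 units. Of 8 probes for the proteasome and ubiquitin, 5 were higher, with a median of 0.006 units and a range of -0.07 to 0.08 units.

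Structural genes held some of the lower values. Of 18 cytoskeletal probes 12 were higher and 6 lower, with a median of 0.009 units. Nefl read -0.86 and -0.93 units with NMDA and -1.50 and -0.99 units with PD98059. Its difference of -0.35 units had an interval of -0.75 to 0.05 units and came almost wholly from experiment 1, at -0.64 units against -0.06 in experiment 2. Sptan1, the spectrin of the membrane skeleton, differed by -0.21 units and Tuba1a, the main alpha-tubulin of young neurons, by -0.20 units. The 5 probes for Actb lay between -0.01 and 0.07 units.

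The postsynaptic list held Dlg4 (PSD-95), Shank1 and Gabbr1, and these differed by 0.09, 0.06 and 0.05 units with overlapping arrays. Of 7 vesicle and endocytosis probes 6 were higher, with a median of 0.02 units. Ap2m1, a subunit of the clathrin adaptor, was the lower one: it read -0.93 and -0.98 units with NMDA and -1.30 and -1.02 units with PD98059, a difference of -0.21 units. In the calcium list, Hpca stood alone, since Ncald, Cacnb1 and Prkca differed by -0.04, 0.01 and 0.06 units.

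The same held for energy and RNA genes. All 6 glycolysis probes were higher, by 0.008 to 0.07 units, with no group of arrays apart from the other. Of 11 probes for oxidative phosphorylation 7 were higher, with a median of 0.02 units. The 7 probes for the mitochondrial gene COX3 disagreed, from -0.17 to 0.09 units. Of 8 splicing probes 5 were higher, with a median of 0.02 units, and after Rbfox2 the lowest was Srsf1 at -0.12 units.

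Markers of cell types were checked beside these results. The 5 probes for the neuronal genes Mapt, Nefl, Stmn2 and Uchl1 summed to 1.62 and 1.80 units with NMDA and to 1.02 and 1.46 units with PD98059, so both PD98059 sums were lower. Nefl and 1 Uchl1 probe made most of that gap. The 4 astrocyte probes, for Gfap, Glul and Cpe, summed to -1.97 and -1.92 units with NMDA and to -1.91 and -1.74 units with PD98059. The 8 probes of endothelial, meningeal and fibroblast genes summed to -1.39 and -1.43 units with NMDA and to -1.31 and -1.17 units with PD98059. Of microglial markers only Csf1r was measured, at a difference of 0.06 units, and no oligodendrocyte marker of the list was on the array. None of these 18 probes passed the test. A Z-score gives no zero level, so these values do not show whether a cell type was present, and the part of cell makeup in the differences was not tested.

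The inhibitor arrays were then placed beside the control, to ask whether probes that stood away from the control under NMDA stood elsewhere with PD98059. These comparisons share their arrays with the one above, so their values are only set side by side, and they rest on 1 control array, which is assumed to vary like the other groups. For NMDA minus control, limma called 82 probes at an adjusted p under 0.05 (7.12% of all), 7 higher (0.608%) and 75 lower (6.51%). For PD98059 minus control it called 76 (6.6%), 12 higher (1.04%) and 64 lower (5.56%). At an unadjusted p under 0.05 the shares were 30.2% for NMDA and 28.5% for PD98059. With the experiment as a block the counts were 38 and 9, and 112 and 100 when trend and robust moderation were added to it. With a running median along the probe order removed both were 0. When the control of experiment 1 was kept and moved by 1 row, both were also 0. With each array's median set to 0, which shifts these differences by 0.11 units, the splits became 189 higher and 69 lower for NMDA and 215 and 66 for PD98059. Without the NMDA array of experiment 1 or of experiment 2, the first count was 53 or 43, and without either PD98059 array it was 128.

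**Figure D4:**
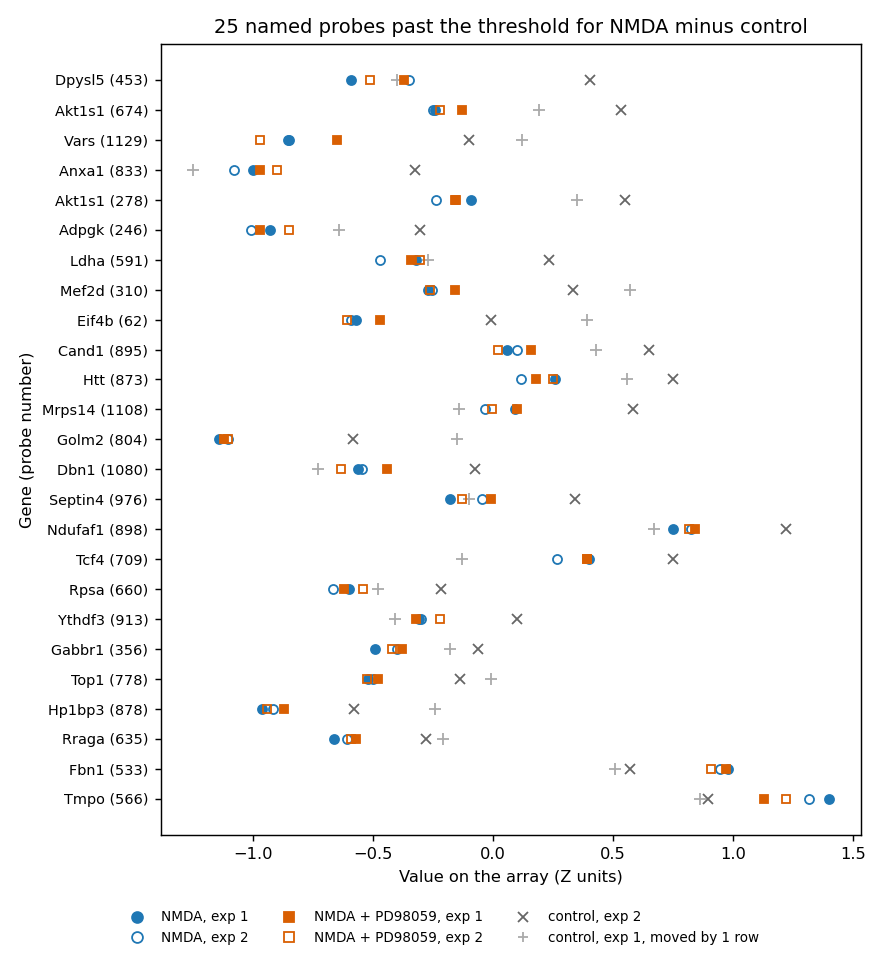
Values in Z units of the 25 named probes that passed the threshold for NMDA minus control, on each array, with gene and probe number on the vertical axis. Circles are NMDA, squares are NMDA with PD98059, filled symbols are experiment 1, open symbols are experiment 2, crosses are the control of experiment 2, and plus signs are the control of experiment 1 after its column was moved by 1 row. The squares lie among the circles for most probes, and for Tmpo they lie between the circles and the control.

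Of the 82 probes, 25 had a gene name, 23 lower than the control with NMDA and 2 higher. Their PD98059 minus NMDA differences ran from -0.18 units (Tmpo) to 0.10 units (Anxa1), with a median of 0.04 units. For 21 of the 25 the PD98059 arrays overlapped the NMDA arrays. Over all 1152 probes, both PD98059 arrays were below both NMDA arrays for 103 (8.94%) and above both for 165 (14.3%), and the rest overlapped. The 25 were chosen by a test that used the NMDA arrays, so their overlap is a description only. The 95% intervals of all 25 lay between -0.34 and 0.31 units, while the differences from control among the lower probes reached -0.87 units. For PD98059 minus control, 17 of the 25 also passed, against 76 of all 1152 probes (6.6%). Both comparisons subtract the same control array, so passing in both is partly built in.

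Dpysl5, a collapsin response mediator of growth cones, read 0.40 units in the control, -0.59 and -0.35 units with NMDA and -0.37 and -0.51 units with PD98059. It was lower than the control by 0.87 units with NMDA (limma, adjusted p = 0.020) and by 0.84 units with PD98059 (limma, adjusted p = 0.028), and the difference between the 2 was 0.03 units (95% interval -0.21 to 0.27). Its moved control of experiment 1 stood at -0.40 units, among the treated arrays. Akt1s1, the mTORC1 inhibitor PRAS40, read 0.53 units in the control, -0.24 and -0.25 units with NMDA and -0.13 and -0.22 units with PD98059 on probe 674. Its moved control stood at 0.19 units, and its second probe differed from NMDA by 0.008 units with PD98059. Mef2d read 0.33 units in the control and was lower than it by 0.60 units with NMDA (limma, adjusted p = 0.019) and by 0.55 units with PD98059 (limma, adjusted p = 0.026). Eif4b, an initiation factor, was lower by 0.57 and 0.53 units, the lactate dehydrogenase probe Ldha 591 by 0.63 and 0.56 units, and Htt by 0.56 and 0.54 units. Their moved controls stood at 0.39, -0.27 and 0.56 units, that of Ldha 591 close to its treated arrays. On Akt1s1 probe 674 both PD98059 arrays lay above both NMDA arrays, by 0.07 units on average. For the other probes given here, the arrays with the inhibitor overlapped those of NMDA alone.

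For 4 of the 25 the PD98059 arrays lay between both NMDA arrays and the control of experiment 2: Akt1s1 probe 674, Anxa1, Rraga and Tmpo. The share of all probes with this place was not counted. Anxa1 read -0.32 units in the control, -1.0 and -1.08 units with NMDA and -0.97 and -0.90 units with PD98059. Its moved control of experiment 1 stood at -1.25 units, below all the treated arrays and nearer to NMDA than to PD98059, so Anxa1 did not keep this place. The moved controls of Akt1s1 probe 674, Rraga and Tmpo, at 0.19, -0.21 and 0.86 units, lay on the same side as the control of experiment 2. Of these 4, the difference between the treatments was largest for Tmpo: its control stood at 0.90 units, NMDA at 1.40 and 1.32 units, and PD98059 at 1.13 and 1.22 units. It was higher than the control by 0.46 units with NMDA (limma, adjusted p = 0.030) and by 0.28 units with PD98059 (limma, adjusted p = 0.094). Fbn1, the microfibril protein fibrillin, was higher by 0.39 and 0.37 units, with overlapping NMDA and PD98059 arrays. All 25 kept their side of the control with medians set to 0 or arrays divided by their median absolute deviation. With the running median removed 23 did, Septin4 and Rraga turning. The 25 were chosen for a large NMDA difference from the control, the smallest being that of Rraga at -0.35 units. Setting medians to 0 shifts these differences by 0.11 units, so it could not turn a side. Against the moved control of experiment 1, the NMDA mean of 19 of the 25 lay on the same side as against the control of experiment 2.

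The effect of PD98059 was last tested against that of nitroarginine, as the difference between PD98059 minus NMDA in its set and nitroarginine minus NMDA in the other, which share no array. The limma interaction test gave 0 probes at an adjusted p under 0.05 (0%), with a lowest adjusted p of 0.998, and 1 probe at an unadjusted p under 0.05 (0.0868%). This test was far less precise than the one within the PD98059 set: the median half-width of its 95% interval was 1.06 units. The 2 NMDA arrays of the nitroarginine set differed with an SD over probes of 0.870 units, against 0.128 units for the PD98059 set.

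The named probes with the smallest interaction p included Dnaja1 and Hpca again. PD98059 minus NMDA for Dnaja1 was -0.40 and -0.18 units in the 2 experiments, and nitroarginine minus NMDA was 0.21 and 0.43 units, an interaction of -0.61 units (SE 0.316, interval -1.36 to 0.15). For Hpca the PD98059 differences were -0.53 and -0.19 units and the nitroarginine differences 0.09 and 0.47 units, an interaction of -0.64 units (SE 0.423). Neither gene passed the test, and both were named for their small interaction p. Poll, a DNA repair polymerase, had an interaction of -0.69 units (SE 0.354), with PD98059 differences of -0.39 and -0.02 units and nitroarginine differences of 0.08 and 0.90 units. Shkbp1 and Ctr9 had interactions of -0.48 and -0.49 units. On the other side, Dmxl2, Atg2a, Tbc1d23, Stx7 and Sub1 had interactions of 0.44 to 0.51 units. For these the PD98059 difference was at most 0.08 units, and the gap came from the nitroarginine arrays, as for Dmxl2 at -0.18 and -0.75 units.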

How the data were processed

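Arrays carried 1152 cDNA probes. The deposited values are scores, Z-scores within each array; the sources used here do not state how the authors made them. Values of MEK set experiment 1 are rounded to 2 decimals. Direction was taken as brightness. Symbols came from the platform annotation (384 probes with 1 symbol, 6 with several, 762 with none; 362 matched the rat gene table). The column of the experiment 1 control stands 1 row from its probes (r with the median of the other MEK set arrays 0.122 as deposited, 0.866 moved) and was left out.

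limma 3.58.1 (R 4.3.3, statmod 1.5.0) fitted 3 group means to the 5 other MEK set arrays (2 residual and 3.7 prior degrees of freedom), with two-sided tests and Benjamini-Hochberg adjustment over 1152 probes at 0.05. The interaction used 8 arrays. The number of arrays limits the precision, and spot depth is unknown. The titles number the experiments, and a fit with that number as a block was made; deviations of same-numbered NMDA and PD98059 arrays correlated at -0.145, so whether the numbers pair the arrays is not settled. The fit was checked on simulated data. Alternatives were other scaling, moderation, filters, blocks and arrays. Named probes were the 12 of smallest p in each direction, all members of the MAP kinase and marker lists with the other probes of these genes, the 3 largest differences of other lists and 5 interaction probes each way. Arf3, Lrrc4b, Hes6 and the genes named against the control were chosen after their values were seen, as were list members named for context and the motifs. The comparison, its members and the lists were chosen with earlier results of these data known. Python 3.11.15, numpy 2.4.6, pandas 2.3.3 and matplotlib 3.10.9 did the rest.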

Additional observations from a re-analysis of the deposited data

How the results depend on the processing

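The count for PD98059 minus NMDA was 0 in 17 of 18 alternatives, experiment as a replicate block (0) included, and ranged from 0 to 5 when each array was left out in turn. Same-numbered arrays deviated in opposite directions, and with the PD98059 numbers crossed, an alternative chosen after seeing the data, the blocked count was also 0, and 0 for both comparisons with the control. The interaction count was 0 throughout, replicate block included.

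For PD98059 minus control and NMDA minus control, in that order, the counts were 281 and 258 with medians set to 0. They were 315 and 321 with arrays divided by their median absolute deviation, and 177 and 192 with trend and robust moderation. Leaving out the dimmest probes gave 123 and 126. The replicate block gave 9 and 38, and 100 and 112 when trend and robust moderation were added to it. Both were 0 with the running median removed, with all 12 rat arrays, and with the control of experiment 1 kept as deposited or moved. Leaving out each array in turn gave 51 to 74 and 43 to 128; neither comparison can be fitted without the control of experiment 2. Their splits into higher and lower were 247 and 68, and 250 and 71, after division by the median absolute deviation, and 30 and 59, and 34 and 69, after quantile normalization. The block left no other call changed.

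Of 24 probes named for PD98059 minus NMDA, 21 kept their sign in all 18 settings. Cpe and Nnat turned with the running median removed, and Hspa8 probe 123 when probes of a gene were averaged. All 24 had both PD98059 arrays on the same side of both NMDA arrays, so leaving out an array could not turn a sign. Changes of moderation, block or control array leave the estimate as it is. The count of 21 was therefore largely fixed by the choice of probes. Of 32 probes given for the interaction, 14 kept their sign in every setting. Medians of gene lists moved by more than their spread between experiments as follows. With the running median removed they were -0.026 (proteasome), -0.018 (cytoskeleton), -0.041 (calcium), -0.024 (splicing), -0.073 (neuron markers), 0.011 (astrocyte markers) and -0.0098 units (endothelial markers). With probes of a gene averaged they were 0.027 (Ras-ERK), -0.057 (chaperones) and 0.011 units (astrocyte markers). Division by the median absolute deviation gave -0.020 for Ras-ERK, and leaving out dim probes gave -0.0032 for endothelial markers. Leaving out each array gave -0.028 to 0.041 for Ras-ERK, -0.030 to 0.052 for the proteasome, -0.024 to 0.0034 for calcium, -0.038 to 0.026 for splicing, -0.12 to 0.0015 for neuron markers and 0.024 to 0.045 units for astrocyte markers. The cause of these shifts was not tested.

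A change shared by every probe cannot be seen in Z-scores, and signal over background is unknown. With 2 arrays per group, the unadjusted 95% interval had a median half-width of about 0.16 units. The test over all probes did not resolve larger differences either. By more than 0.2 units, 63 probes were lower with PD98059, down to -0.54 units, and 0 were higher. None of them passed (lowest adjusted p = 0.999, limma).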
